A study of Mus musculus with 20 samples.

Results

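The genes described here encode the cytosolic ribosomal proteins, the protein shell of the ribosome that translates messenger RNA in the cytoplasm. They were taken by gene symbol: symbols of the Rpl, Rps, Rplp and Rpsa series without the -ps mark of a pseudogene, which gave 76 of the 29671 genes in the count table. Of these, 46 belong to the large subunit (Rpl and Rplp) and 30 to the small subunit (Rps and Rpsa), and all 76 were among the 16727 genes that passed the filter on low counts. The symbol rule does not take Fau, whose ribosomal protein is made as a fusion with a ubiquitin-like protein, nor Rack1 and Rps3a1, which also sit in the small subunit. Those 3 genes are given further on with the rest of the translation machinery.

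Messenger RNA had been sequenced from the amygdala, which takes part in fear learning and in the response to threat, in 20 males of the C57B6 strain aged 84 days after birth. The 4 groups of 5 mice were the F2 generation of a stress lineage, the F2 generation of a no-stress lineage, the F1 generation of the stress lineage and the F1 generation of the no-stress lineage. Lineage refers to chronic unpredictable stress of an ancestor, and the sampled mice themselves had no behavioural tests. All mice carried the same inbred background, bred in house from Taconic stock, with no transgene or deletion named, and each library came from punches of both amygdalae of 1 mouse. The labels call the mice biological replicates. The sources used here do not say whether mice of a group shared a litter, so the p-values reflect only the spread between the sampled mice. In the main gene tests that spread was estimated within groups, in 1 model of all 4 groups, and not from the 2 compared groups alone. In bulk tissue, fewer cells of a type and less RNA per cell cannot be told apart.

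A ribosome needs nearly all of its proteins in equal number, so cells keep the supply of these proteins matched, largely after transcription: unused ribosomal proteins are degraded. Their mRNAs begin with a terminal oligopyrimidine tract, a run of C and T at the very start, through which the mTOR pathway and the RNA-binding protein Larp1 set how strongly the whole class is translated. Neurons also hold ribosomal protein mRNAs and ribosomes in dendrites and axons, where local translation serves synaptic change. The levels of messenger RNA measured here do not show that translation.

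Start sites are shown first, since this tract is the sequence by which the class is known. RefSeq promoter windows (build GRCm38.p6) were matched for 56 of the 76 genes, and Rpl36, Rpl7, Rplp1 and Rpl29 were among the unmatched. Shown are genes named in the comparisons below, and Rps6 as the target of the S6 kinases. Each line below gives 30 bases, from 10 before the annotated start to 20 after it, 5′ to 3′ on the coding strand; capitals mark a C followed by at least 6 more C or T, and a window with no capitals holds no such run.
Rplp2 (chr7:141447641-141447670, + strand): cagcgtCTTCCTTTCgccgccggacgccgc
Rpl31 (chr1:39367841-39367870, + strand): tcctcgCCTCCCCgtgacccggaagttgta
Rpl39 (chrX:37085203-37085232, - strand): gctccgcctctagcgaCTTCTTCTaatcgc
Rpl5 (chr5:107900518-107900547, + strand): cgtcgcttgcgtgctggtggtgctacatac
Rps24 (chr14:24490668-24490697, + strand): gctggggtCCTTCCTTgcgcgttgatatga
Rps27 (chr3:90213629-90213658, - strand): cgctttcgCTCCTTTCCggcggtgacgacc
Rps6 (chr4:86857348-86857377, - strand): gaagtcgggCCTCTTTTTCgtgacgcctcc
Rps4x (chrX:102189372-102189401, - strand): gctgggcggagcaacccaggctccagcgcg

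Such a run was found in at least 1 start window of 27 of the 56 genes (48.2%), against 15.6% of the 27025 genes in the RefSeq table. It was present in 16 of 34 large-subunit genes (47.1%) and in 11 of 22 small-subunit genes (50%). In Rps24 the run of 8 began 2 bases before the annotated start, and in Rps27 the run of 9 began at the same place. The Ets-type motif CCGGAAG, searched on both strands of the window from 250 bases before to 50 bases after the start, was found for 23 of the 56 genes (41.1%), against 9.93% of all genes. The Rpl31 line above contains it just after the pyrimidine run. These matches describe letters in the annotated windows, and no binding or start site was measured here.

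The 20 libraries held 13654890 to 13714805 counts each, so the totals hardly differed. Together the 76 genes took 0.801 to 1.18% of the counts of a library. Markers of the basolateral amygdala and pallium (6 of 6 listed genes, among them Rspo2 and Slc17a7) and of the central amygdala (5 of 5, among them Prkcd and Tac2) were detected, as the label of the tissue asks. Striatal markers (7 of 7, among them Drd1 and Adora2a) were detected too, and their summed level, in CPM (counts scaled to a common library size), differed widely among the punches. That sum was 302 to 4814 CPM in F2 stress and 1101 to 4518 CPM in F2 no-stress mice, and 814 to 2625 CPM in F1 stress and 1089 to 4653 CPM in F1 no-stress mice. The basolateral and pallial sum differed widely too, with 376 to 1062 CPM in F2 stress and 57.3 to 1180 CPM in F2 no-stress mice. In F1 it was 130 to 1153 CPM in stress and 327 to 1082 CPM in no-stress mice. Its lowest value was that of F2 no-stress replicate 20. The part of this variation in the results below was not tested.

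The ribosomal protein genes were not equally abundant at the RNA level. The mean level over all libraries ran from 17.5 CPM for Rpl36 to 442 CPM for Rpl3, with a median of 111 CPM (114 for the large and 109.7 for the small subunit). Per kilobase of transcript, the scale on which genes can be compared, the highest members of the large subunit were Rpl9 with 388, Rpl3 with 327 and Rpl41 with 317 CPM per kb. Rpl3 lies next to the peptidyl transferase centre, and Rpl41 encodes a peptide among the shortest in the ribosome. The highest of the small subunit were Rps15, a protein near the decoding site, with 329, Rps27, a zinc-finger protein, with 285 and Rps29, another zinc-finger protein, with 263 CPM per kb. The median of the whole class was 164 CPM per kb (156 in the large and 168 in the small subunit).

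At the low end stood Rpl36 with 45.8, Rpl35 with 62.4 and Rplp0 with 74.9 CPM per kb in the large subunit. The lowest of the small subunit were Rps20 with 22.3, Rps26 with 59.6 and Rps16 with 64.6 CPM per kb. Rps20 is annotated with a transcript of 3706 bases, the longest of the 76, so its value per kb is low through that length. Its level was 82.8 CPM. Values per kb depend on the transcript taken for each gene. Those of Rplp0 (1358 bases), Rps16 (1109) and Rpl35 (946) were also longer than the class median of 705, while those of Rpl36 (383) and Rps26 (681) were shorter. Rplp0 and the partners Rplp1 and Rplp2, which form the stalk that recruits elongation factors, did not share 1 level: Rplp1 had 234 and Rplp2 had 99.6 CPM per kb.

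The spread between mice of the same group differed among these mRNAs. The SD of log2 CPM within groups had a median of 0.19 over the 76 genes, against 0.17 over the 8398 genes at or above the level of the lowest member. The steadiest were Rpl5 with 0.10, Rpl15 with 0.11 and Rpl10 with 0.13. Rpl5 carries 5S ribosomal RNA and, when free, binds Mdm2, and Rpl10 is placed late in subunit assembly. The most variable were Rpl36 with 0.47, Rplp1 with 0.43 and Rps29 with 0.32.

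**Figure D1:**
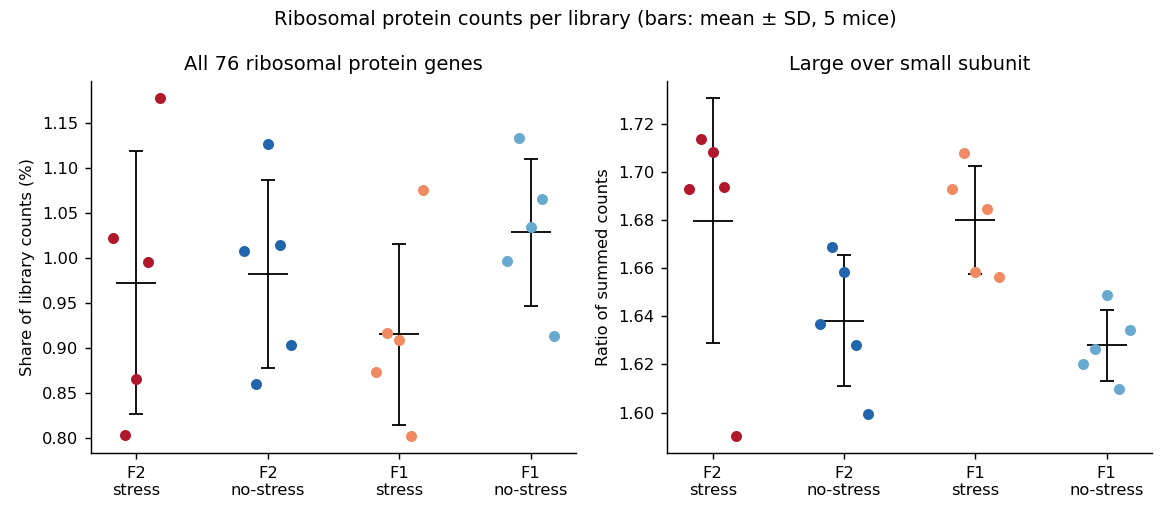
Left, the summed counts of the 76 genes as a percent of each library; right, the summed counts of the 46 large-subunit genes over those of the 30 small-subunit genes, with 1 point per mouse and bars for the mean ± SD of 5 mice in F2 stress, F2 no-stress, F1 stress and F1 no-stress. All 5 F1 stress mice had a higher ratio than all 5 F1 no-stress mice, and F2 stress replicate 15 stands apart with the highest share and the lowest ratio.

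The share of counts per library is the simplest view of the class, and it overlapped between lineages in both generations. In F2 it was 1.02, 0.803, 0.865, 0.995 and 1.18% in the stress mice, against 1.01, 0.860, 1.13, 1.01 and 0.903% in the no-stress mice. In F1 it was 0.873, 0.916, 0.908, 0.801 and 1.08% in the stress mice, against 0.996, 1.13, 1.03, 1.07 and 0.913% in the no-stress mice. In the F1 stress group 4 of 5 mice thus lay below all but 1 of the F1 no-stress mice, while the fifth lay among the highest of them.

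The large and small subunits were compared next, through the ratio of their summed counts. In F2 this ratio was 1.69, 1.71, 1.71, 1.69 and 1.59 in the stress mice, against 1.64, 1.67, 1.66, 1.63 and 1.60 in the no-stress mice. Here 4 of 5 stress mice lay above all no-stress mice, and replicate 15 lay below all of them. The means were 1.68 ± 0.051 in stress and 1.64 ± 0.027 in no-stress mice (SD, n = 5 each), a difference of 0.042, which became 0.064 without replicate 15.

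In F1 the ratio was 1.69, 1.71, 1.66, 1.68 and 1.66 in the stress mice, against 1.62, 1.63, 1.65, 1.61 and 1.63 in the no-stress mice. The F1 groups did not overlap, so the large subunit took a somewhat greater part of the class in each F1 stress mouse. The means were 1.68 ± 0.022 in stress and 1.63 ± 0.015 in no-stress mice (SD, n = 5 each), a difference of 0.052. The ratio was given no p-value, because it is a score over genes chosen with earlier results known.

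The 2 most abundant genes of the class, Rpl3 and Rpl4, are both of the large subunit and weigh on its sum. Without them the F2 ratio was 1.38 to 1.47 in the stress mice and 1.39 to 1.45 in the no-stress mice (difference of means 0.016), and the F1 ratio was 1.43 to 1.47 in the stress mice and 1.40 to 1.42 in the no-stress mice (difference 0.037), still without overlap in F1. With every gene given equal weight, the mean log2 deviation of the large-subunit genes minus that of the small-subunit genes was -0.057 to 0.026 in F2 stress and -0.053 to 0.034 in F2 no-stress mice, which overlapped. The same measure was -0.0076 to 0.043 in F1 stress and -0.033 to -0.017 in F1 no-stress mice, again without overlap. With the library trends in GC content and length taken out, the F2 ratio was 1.59 to 1.70 in stress and 1.60 to 1.69 in no-stress mice, and the F1 ratio was 1.66 to 1.71 in stress and 1.61 to 1.64 in no-stress mice. These 3 variants of the ratio were chosen after the data had been seen.

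In the F2 generation, stress lineage against no-stress lineage, Rpl36 fell and no other ribosomal protein gene passed the test (edgeR quasi-likelihood test, adjusted p below 0.05 over all genes). Over all tested genes 7.92% were called in this comparison, 5.28% as lower, and 1 of 76 members is a smaller share than that. At an unadjusted p below 0.05, 8 members were higher and 9 were lower, against 11.7% and 13.9% of all genes. In no member were the groups without overlap, against 2.36% of all genes in the lower and 2.25% in the higher direction. The large-subunit genes had a median log2 fold change of -0.03 (24 of 46 below 0) and the small-subunit genes of -0.06 (17 of 30 below 0), beside 0.00 over all genes, of which 49.8% lay below 0.

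Rpl36, a small protein of the large subunit, had 11.3, 7.93, 9.04, 14.4 and 22.4 CPM in F2 stress mice, against 35.0, 24.1, 29.4, 20.8 and 15 CPM in F2 no-stress mice. Only the last stress mouse, replicate 15, overlapped the no-stress group. The means were 13 ± 5.78 CPM in stress and 24.9 ± 7.71 CPM in no-stress mice (SD, n = 5 each), and the log2 fold change was -0.93 ± 0.28 (SE, edgeR, adjusted p = 0.0434). The gene averaged 239.5 counts per library, the least of the 76. In edgeR the call did not hold with an offset for GC content and length (-0.53, adjusted p = 0.208). It did not hold either when the F1 libraries were left out of the fit (-0.93, adjusted p = 0.133), where 0 of 16171 genes were called. Leaving out any 1 of 11 libraries also ended it, with log2 fold changes of -0.99 to -0.78 (adjusted p = 0.0501 to 0.124): F2 stress replicates 11, 12 and 13, F2 no-stress replicates 16, 17, 18 and 19, F1 stress replicates 2, 3 and 4, and F1 no-stress replicate 7.

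The stalk genes came next. Rplp1 had 85.1, 56.4, 65.3, 95.8 and 159 CPM in F2 stress mice, against 215, 133, 189, 143 and 99.1 CPM in F2 no-stress mice (log2 fold change -0.76 ± 0.25 SE, edgeR, adjusted p = 0.0693). Rplp2 had 34.0, 29.0, 31.1, 34.8 and 54.6 CPM in F2 stress mice, against 70.9, 44.2, 68.1, 46.7 and 36.6 CPM in F2 no-stress mice (-0.54 ± 0.18 SE, edgeR, adjusted p = 0.0734). In both genes 4 stress mice lay below every no-stress mouse and replicate 15 lay within the no-stress range. Rplp0, the scaffold on which the stalk is built, had 78.5 to 125 CPM in stress and 83.5 to 148 CPM in no-stress mice (-0.36 ± 0.15 SE, edgeR, adjusted p = 0.133).

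Rpl29, a large-subunit protein without which mice live but grow poorly, showed the same arrangement of mice. It had 60.5, 58.3, 58.5, 63.2 and 95 CPM in F2 stress mice, against 113, 94.3, 107, 81.7 and 65.7 CPM in F2 no-stress mice (-0.46 ± 0.16 SE, edgeR, adjusted p = 0.0823). Of the small subunit, Rps28, which lies near the exit of the messenger RNA, had 29.9 to 52.4 CPM in stress and 37.7 to 51.2 CPM in no-stress mice (-0.32 ± 0.13 SE, edgeR, adjusted p = 0.128). Neither passed the threshold. The number of called members depended on single libraries: it was 0 without any 1 of the 11 libraries named for Rpl36. Without F2 no-stress replicate 20 it was 5, all lower, beside 1137 of all 16830 genes called lower in that fit. Without F2 stress replicate 15, 8.36% of all 16892 genes were called lower. In that fit 17 ribosomal protein genes were called lower, 10 of them large-subunit genes (among them Rpl29, Rpl36, Rplp0, Rplp1 and Rplp2) and 7 small-subunit genes (among them Rps15, Rps26, Rps28 and Rps29).

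At the other end of the F2 comparison, several genes had positive values that did not pass the test. Rpl7, a large-subunit protein, had 245, 208, 206, 197 and 245 CPM in F2 stress mice, against 182, 155, 208, 189 and 198 CPM in F2 no-stress mice (0.24 ± 0.09 SE, edgeR, adjusted p = 0.106). Rpl39, a short protein in the wall of the exit tunnel, had 64.4, 59.7, 65.0, 62.6 and 71.4 CPM in F2 stress mice, against 52.3, 41.2, 60.8, 56.5 and 53.1 CPM in F2 no-stress mice (0.29 ± 0.11 SE, edgeR, adjusted p = 0.107). Of the small subunit, Rps15a had 119 to 154 CPM in stress and 102 to 129 CPM in no-stress mice, with 0.22 ± 0.09 (SE, edgeR, adjusted p = 0.119), and Rps4x, an X-linked protein, had 183 to 257 CPM in stress and 163 to 189 CPM in no-stress mice, with 0.21 ± 0.09 (SE, edgeR, adjusted p = 0.129). In each of these 4 genes the groups overlapped.

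**Figure D2:**
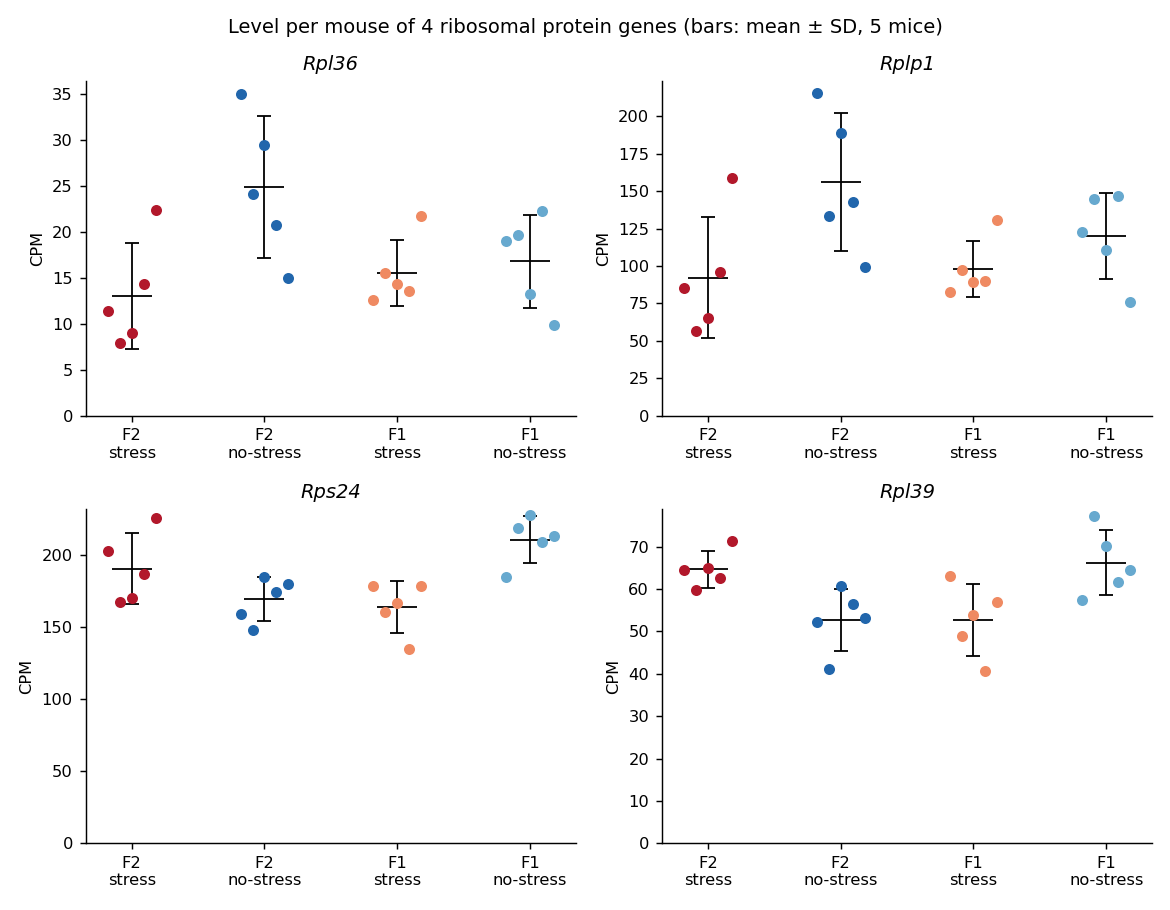
CPM per mouse of Rpl36, Rplp1, Rps24 and Rpl39 in F2 stress, F2 no-stress, F1 stress and F1 no-stress mice, with the mean ± SD of 5 mice; axes start at 0. In Rpl36 and Rplp1, 4 of 5 F2 stress mice lay below all F2 no-stress mice, and Rps24 in F1 stress mice (135 to 179 CPM) lay below all F1 no-stress mice (185 to 228 CPM).

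The F2 values followed base composition. Of the 19 members with the highest GC content (54.8 to 60.8%), 18 lay below 0 (median log2 fold change -0.21), and of the 19 with the lowest (41.3 to 48.5%), 17 lay above 0 (median 0.17). Across the 76 genes Spearman's rho between GC content and the F2 log2 fold change was -0.70, and it was -0.77 over the 46 large-subunit and -0.57 over the 30 small-subunit genes; the genes share the same 10 libraries, so these are descriptions. Genes outside the class showed the same trend: the 1662 other genes with the highest GC content (58.2% or more) had a median of -0.41, with 92.0% below 0, and the 1662 with the lowest (41.9% or less) had a median of 0.17, with 26.2% below 0.

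Per library, this trend (median log2 deviation of those high-GC genes minus that of the low-GC genes) was -0.31, -0.40, -0.39, -0.10 and 0.20 in F2 stress mice, against 0.62, 0.46, 0.48, 0.28 and -0.09 in F2 no-stress mice. The difference of the means was -0.55 (exact two-sided permutation test, p = 0.0159, 0.0635 adjusted over the 4 such tests, with 0.00794 the smallest p that 5 against 5 allows). Replicate 15 was the only F2 stress library above 0, and replicate 20 the only F2 no-stress library below 0. With the trends removed as an offset fitted on other genes, edgeR called 0 members and 0.0418% of all genes, so calls were lost over the whole table. Under that offset rho was -0.14 and the median was 0.02 in the large and -0.0025 in the small subunit. Astrocyte markers (5 of 5 detected) summed to 1015 to 1309 CPM in F2 stress and 794 to 1108 CPM in F2 no-stress mice. The part of the trend and of these markers in the values of single genes was not tested.

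**Figure D3:**
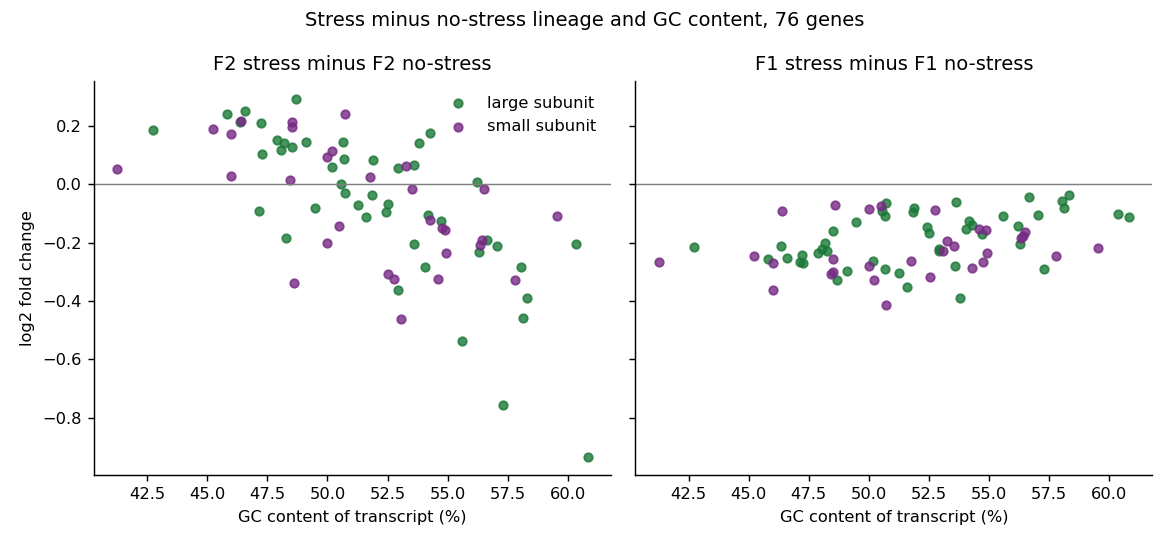
log2 fold change of each of the 76 genes against the GC content of its transcript, F2 stress minus F2 no-stress on the left and F1 stress minus F1 no-stress on the right; green points are large-subunit and purple points small-subunit genes. In F2 the values pass from positive at low GC content to negative at high GC content, and in F1 all points lie below 0.

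In the F1 generation, stress lineage against no-stress lineage, all 76 ribosomal protein genes had a log2 fold change below 0, and none passed the test (edgeR, smallest adjusted p = 0.739). Over all tested genes 49.0% lay below 0 and 0.0% were called. At an unadjusted p below 0.05, 27 of the 76 were lower (15 large-subunit, 12 small-subunit), against 3.52% of all genes, and 0 were higher, against 2.64%; DESeq2, with 2 calls in the whole table, and limma-voom, with 0, also called 0 members. The median was -0.19 over the large-subunit genes (-0.39 to -0.04) and -0.24 over the small-subunit genes (-0.42 to -0.07), beside 0.00 over all genes. The 76 values come from the same 10 libraries and are not separate observations.

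The F1 values with the smallest p were in both subunits. Rps24, a small-subunit protein altered in some patients with Diamond-Blackfan anaemia, had 179, 161, 167, 135 and 178 CPM in F1 stress mice, against 185, 219, 228, 209 and 214 CPM in F1 no-stress mice. The groups did not overlap. The means were 164 ± 17.9 CPM in stress and 211 ± 16.1 CPM in no-stress mice (SD, n = 5 each), a log2 fold change of -0.36 ± 0.10 (SE, edgeR, unadjusted p = 0.00116, adjusted p = 0.739). Rps4x had 197, 163, 186, 174 and 196 CPM in F1 stress mice, against 198, 234, 226, 209 and 226 CPM in F1 no-stress mice (-0.26 ± 0.09 SE, edgeR, adjusted p = 0.739), and its groups did not overlap either. These 2 of the 76, both of the small subunit, were the ones with separate groups, against 0.568% of all genes separate in that direction.

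Rps27 had the most negative F1 value of the class. It had 91.9, 83.1, 86.9, 64.7 and 97.1 CPM in F1 stress mice, against 95.4, 124, 117, 114 and 115 CPM in F1 no-stress mice (-0.42 ± 0.13 SE, edgeR, adjusted p = 0.739). A single stress mouse exceeded 1 no-stress mouse, and all the others were apart. Rps13, another small-subunit protein, had 53.0 to 70.6 CPM in stress and 69.0 to 76.3 CPM in no-stress mice (-0.26 ± 0.08 SE, edgeR, adjusted p = 0.739).

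Of the large subunit, Rpl31, which lies at the mouth of the exit tunnel, had 138, 119, 133, 116 and 150.1 CPM in F1 stress mice, against 146, 184, 178, 186 and 167 CPM in F1 no-stress mice (-0.39 ± 0.12 SE, edgeR, adjusted p = 0.739). Rpl22, a protein that mice need for T cell development, had 63.2, 52.4, 55.2, 54.4 and 60.9 CPM in F1 stress mice, against 60.7, 66.3, 72.2, 71.3 and 74.0 CPM in F1 no-stress mice (-0.27 ± 0.09 SE, edgeR, adjusted p = 0.739). Rpl39 had 63.1, 49.0, 53.9, 40.6 and 57.0 CPM in F1 stress mice, against 57.5, 77.1, 70.2, 61.8 and 64.4 CPM in F1 no-stress mice (-0.33 ± 0.11 SE, edgeR, adjusted p = 0.739). In Rpl31 and Rpl39 a single stress mouse, and in Rpl22 a pair of them, lay within the no-stress range.

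The other members with known special roles were also below 0 in F1. Rpl5 and Rpl11, which join 5S ribosomal RNA and bind Mdm2, had -0.21 ± 0.07 and -0.23 ± 0.11 (SE). Rps3 and Rps2, at the entry of the messenger RNA channel, had -0.31 ± 0.12 and -0.16 ± 0.13, Rpsa, also known as the laminin receptor, had -0.19 ± 0.13, and Rps19, the gene most often altered in Diamond-Blackfan anaemia, had -0.22 ± 0.13 (SE). Rps6, the target of the S6 kinases, had 163, 183, 179.8, 170.1 and 195 CPM in F1 stress mice, against 177, 204, 203, 189 and 173 CPM in F1 no-stress mice, and -0.09 ± 0.09 (SE, edgeR, adjusted p = 0.794). Rpl38, needed in mice for the translation of some Hox mRNAs, had -0.14 ± 0.11, and Rpl3, Rpl4 and Rpl10 had -0.08 ± 0.10, -0.20 ± 0.09 and -0.09 ± 0.08 (SE). None of these passed the test.

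Measures of transcript length and mitochondrial RNA in the same libraries stand beside the F1 values. The median log2 deviation of the 1663 shortest other genes (834 bases or less) minus that of the 1662 longest (5945 or more) was -0.12, -0.08, -0.16, -0.16 and 0.15 in F1 stress mice, against -0.003, 0.15, 0.10, 0.13 and -0.11 in F1 no-stress mice (difference of means -0.13, exact two-sided permutation test, p = 0.119, 0.238 adjusted over 4 tests). The ribosomal protein transcripts are short, with a median of 705 bases against 2623 over all genes. Replicate 5, the stress mouse above 0, and replicate 10, the no-stress mouse with the lowest trend, were also the stress mouse with the highest and the no-stress mouse with the lowest ribosomal protein share. Mitochondrially encoded genes took 6.46 to 8.26% of counts in F1 stress and 7.64 to 9.65% in F1 no-stress mice. With the trends with length and GC content removed, all 76 genes were below 0 and the median was -0.19 (-0.16 large, -0.21 small). The part of mitochondrial RNA in the F1 values was not tested.

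**Figure D4:**
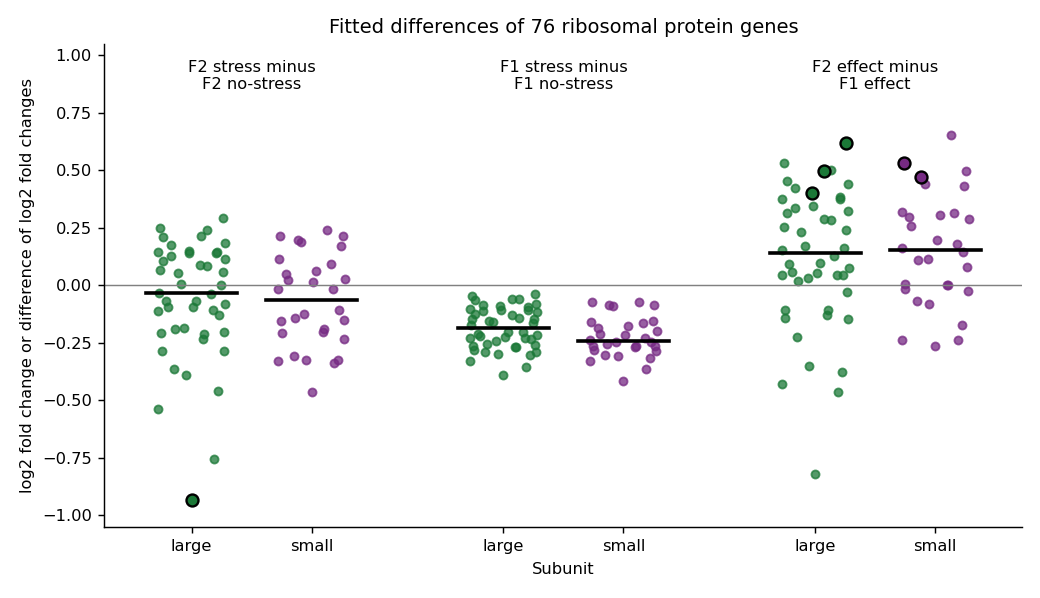
Fitted log2 fold changes of the 46 large-subunit (green) and 30 small-subunit (purple) genes for F2 stress minus F2 no-stress, F1 stress minus F1 no-stress, and the difference of both effects, with black lines for medians and black rims for genes called at an adjusted p below 0.05. All F1 points lie below 0, the F2 points lie on both sides with Rpl36 at the bottom, and 5 genes are called in the difference.

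The difference between the lineage effects, F2 minus F1, was tested directly as an interaction term. It was positive and passed the test for 5 ribosomal protein genes, 3 of the large subunit (Rpl39, Rpl7 and Rpl5) and 2 of the small (Rps24 and Rps4x), and was negative in none that passed. Over all genes 2.52% were called, 0.837% as positive, and 5 of 76 is a larger share than either. At an unadjusted p below 0.05, 23 members were positive and 1 was negative, against 9.88% and 11.4% of all genes. These libraries are those of the F2 and F1 comparisons above, so the interaction is the same data read once more. The median was 0.14 over the large-subunit and 0.15 over the small-subunit genes, beside -0.01 over all genes, and 56 of 76 were positive, against 49.4% of all genes.

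Rpl39 had a lineage effect of 0.29 in F2 and -0.33 in F1, a difference of 0.62 ± 0.16 (SE, edgeR, adjusted p = 0.0442). Its means were 64.6 ± 4.30 CPM in F2 stress and 52.8 ± 7.28 CPM in F2 no-stress mice, and 52.7 ± 8.51 CPM in F1 stress and 66.2 ± 7.63 CPM in F1 no-stress mice (SD, n = 5 each). Rps24 had 0.17 in F2 and -0.36 in F1, a difference of 0.53 ± 0.14 (SE, edgeR, adjusted p = 0.0439). In F2 its levels were 203, 167, 170.4, 187 and 226 CPM in stress mice, against 159, 148, 185, 174 and 180.0 CPM in no-stress mice, which overlap.

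Rpl7 had 0.24 in F2 and -0.26 in F1, a difference of 0.50 ± 0.13 (SE, edgeR, adjusted p = 0.0472). Its F1 levels were 204, 186, 185, 164 and 201 CPM in stress mice, against 199, 252, 235, 214 and 222 CPM in no-stress mice, where the lowest no-stress mouse lay among the stress mice. Rpl5 had 0.18 in F2 and -0.21 in F1, a difference of 0.40 ± 0.10 (SE, edgeR, adjusted p = 0.0472). It had 196, 192, 177, 181 and 211 CPM in F2 stress mice, against 175, 144, 178, 175 and 169 CPM in F2 no-stress mice. It had 186, 176, 164, 164 and 192 CPM in F1 stress mice, against 187, 214, 215, 201 and 207 CPM in F1 no-stress mice. In each generation the groups overlapped by a single pair of mice at their edges. Rps4x had 0.21 in F2 and -0.26 in F1, a difference of 0.47 ± 0.12 (SE, edgeR, adjusted p = 0.0472). Its F2 levels were 215, 197, 191, 183 and 257 CPM in stress mice, against 179, 163, 189, 184 and 185 CPM in no-stress mice, so 4 of 5 stress mice lay above all no-stress mice.

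Rps27 had the most positive difference, 0.66 ± 0.18 (SE), and missed the threshold (edgeR, adjusted p = 0.0572). The most negative was that of Rpl36, -0.82 ± 0.39 (SE, edgeR, adjusted p = 0.232). Of the 5 called genes, 4 were among the 19 members with the lowest GC content. With the GC and length offset, edgeR called 0 members (smallest adjusted p = 0.140) and 0.0% of all genes, while 61 of 76 were positive and the median was 0.19. With counts scaled to library totals 0 members were called, against 1.76% of all genes. Leaving out 1 library at a time gave 0 to 12 calls, and 0 for 13 of the 20 libraries; for 11 of those 13 no gene of the whole table was called.

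Between generations within the no-stress lineage, F2 against F1, no ribosomal protein gene passed the test (edgeR), against 2.0% of all genes; at an unadjusted p below 0.05, 14 were lower and 1 was higher, against 8.35% and 11.9% of all genes, and DESeq2 called 5 lower (Rpl36a, Rpl5, Rpl7, Rps24 and Rps4x), against 2.51% of all genes called lower by DESeq2. Rpl5 came nearest, with a log2 fold change of -0.28 ± 0.07 (SE, edgeR, adjusted p = 0.0505) and no overlap between the 144 to 178 CPM of F2 no-stress and the 187 to 215 CPM of F1 no-stress mice. Rpl36a, a large-subunit protein near the exit site of transfer RNA, had 43.5, 44, 50.2, 50.6 and 42.3 CPM in F2 no-stress mice, against 53.4, 63.7, 63.6, 57.0 and 54.3 CPM in F1 no-stress mice (-0.34 ± 0.10 SE, edgeR, adjusted p = 0.0678). Its groups did not overlap. Rps4x (-0.28 ± 0.09 SE) was also without overlap. In all, 4 of 76 were lower without overlap, against 1.99% of all genes.

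Of the small subunit, Rps24 had -0.32 ± 0.10 (SE, edgeR, adjusted p = 0.0810) and Rps25, which some viral RNAs need for translation, had -0.25 ± 0.09 (SE, edgeR, adjusted p = 0.110). In this comparison 53 of 76 genes were below 0, against 47.5% of all genes, with medians of -0.07 in the large and -0.06 in the small subunit, and rho with GC content was 0.73 across the 76 genes. All 19 members with the lowest GC content were below 0 (median -0.21), and 14 of the 19 with the highest were above 0 (median 0.10). Genes outside the class showed the trend too, with a median of 0.32 in the 1662 with the highest and -0.13 in the 1662 with the lowest GC content, and with the GC and length offset rho over the members was 0.16. Markers of oligodendrocyte precursors (3 of 3 detected) summed to 181 to 200.2 CPM in F2 no-stress and 129 to 184 CPM in F1 no-stress mice, and endothelial markers (4 of 4) to 119 to 144 CPM in F2 no-stress and 94.6 to 121 CPM in F1 no-stress mice. The part of these markers in the values was not tested. The F2 no-stress and F1 no-stress mice also serve as the comparison groups above, so these values are not separate evidence.

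Within the stress lineage, F2 against F1, no member passed the test (edgeR, smallest adjusted p = 0.643), against 0.012% of all genes; at an unadjusted p below 0.05, 13 were higher and 0 were lower, against 4.28% and 2.71% of all genes, and DESeq2, with 6 calls in the whole table, and limma-voom, with 1, called 0 members. The median was 0.08 in both subunits and 59 of 76 were positive, against 52.1% of all genes. Rps13 had 76.9, 66.3, 66.5, 64.3 and 81.3 CPM in F2 stress mice, against 61.5, 57.2, 60.4, 53.0 and 70.6 CPM in F1 stress mice (0.23 ± 0.08 SE). The groups overlapped, and those F2 stress mice with the highest levels, replicates 11 and 15, lay above all F1 stress mice. Rpl39 had 0.29 ± 0.11, Rps27 had 0.32 ± 0.13, Rpl7 had 0.23 ± 0.09, Rpl22 had 0.21 ± 0.09 and Rps27a, which is made as a fusion with ubiquitin, had 0.25 ± 0.11 (SE). Without F2 stress replicate 15 the median of the small subunit was -0.03.

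The genes with a pyrimidine run in their start windows can be set beside those without. In F2 the log2 fold change had a median of -0.11 over the 27 with a run (17 below 0) and 0.00 over the 29 without (14 below 0). In F1 the medians were -0.17 and -0.22, with all 56 below 0, and for the difference between generations they were 0.10 and 0.24. No test was made between these lists.

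Ribosomal protein genes have many processed copies in the mouse genome, and reads of a copy and its parent can be hard to part. Of the 76, 60 had at least 1 annotated near-identical copy in the table (at least 95% identity over at least 50% of the transcript), 421 copies in all and up to 46 for 1 gene. For 6 genes (Rpl10a, Rpl13a, Rpl23a, Rpl24, Rpl27 and Rps6) the most counted copy held over 50% of the gene's own count. For 13 genes the copies together held more counts than the gene itself: Rpl10, Rpl13, Rpl15, Rpl23a, Rpl24, Rpl27, Rpl29, Rpl30, Rpl31, Rpl35a, Rps13, Rps2 and Rps6. The levels of the genes in both lists are uncertain. The 16 genes without a copy, among them Rpl5, Rpl39, Rplp2 and Rps24, had these values: in F2 9 of 16 were below 0 (median -0.13) and in F1 all 16 were (median -0.22). For the 60 with a copy, 32 were below 0 in F2 (median -0.02) and all 60 in F1 (median -0.21). Of the 248 tested copies, 142 were below 0 in F1, with a median of -0.02; no test was made between copies and members.

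The rest of the translation machinery, and the mitochondrial ribosome and proteasome as other many-part assemblies, are given by lists. Of 10 tested ribosome proteins outside the symbol rule, 0 were called in either generation. Among these, Rack1, a scaffold protein on the small subunit, had -0.06 ± 0.11 in F2 and -0.29 ± 0.11 in F1 (SE), Rps3a1 had 0.16 ± 0.08 and -0.18 ± 0.08, and Fau had -0.46 ± 0.16 and -0.07 ± 0.16 (SE). In the F2 comparison 6 of 30 initiation factors were called higher and none lower (median 0.15): Eif3e with 0.36, Eif2s2 with 0.33, Eif4e with 0.33, Eif4a2 with 0.33, Eif3m with 0.31 and Eif5 with 0.25 on the log2 scale. Eif3e and Eif3m are subunits of the factor that prepares the small subunit, and Eif4e binds the mRNA cap. Of 28 assembly factors 3 were called higher (Ncl, Npm1 and Dkc1, proteins of the nucleolus) and 1 lower (Nle1, with -0.68), and of 15 genes that control ribosomal protein mRNAs 1 was higher (Larp4) and 2 were lower (Tsc2, a brake on mTOR, and Rps6kb2, an S6 kinase). Of 10 elongation factors 0 were called, of 78 mitochondrial ribosomal proteins 1 was higher and 2 were lower, and of 37 tested proteasome genes 6 were higher and 1 was lower (median 0.19). Over all 16727 tested genes 441 were called higher and 883 lower in F2. With the GC and length offset only 7 genes of the whole table were called. The F2 medians were then 0.09 for initiation factors and 0.11 for proteasome genes, beside 0.03 over all genes. The part of the GC trend in these lists was not tested.

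In F1 none of these lists held a called gene (edgeR), since no gene of the table passed. The signs were negative for 23 of 30 initiation factors (median -0.07), 71 of 78 mitochondrial ribosomal proteins (median -0.13), 31 of 37 proteasome genes (median -0.08) and 9 of 10 ribosome proteins outside the symbol rule (median -0.17). They were negative for 17 of 28 assembly factors (median -0.03), 5 of 10 elongation factors (median -0.01) and 5 of 15 control genes (median 0.08). Over the 76 cytosolic ribosomal proteins the F1 median was -0.21. No test was made of the difference between the lists.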

How the data were processed

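A stranded kit with poly-A enrichment was used for the libraries, per the labels' protocols. The aligner was STAR 2.5.3a and the build GRCm38, per the submitters' processing notes. The authors deposited whole-number counts per Ensembl gene. For the counting tool, its strand setting and its handling of multiply mapped reads: not given in the sources used here. Library totals lie so close together that the deposited counts appear to have been brought to a common depth by an undescribed step, so a total may not show the original depth. All 20 columns were used, and groups came from the sample titles.

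The 76 genes and all lists were chosen with earlier results of these data known. Genes were kept by filterByExpr and fitted in 1 model of the 4 groups with edgeR 4.0.16 (TMM factors, robust quasi-likelihood test, R 4.3.3). In all, 5 contrasts were tested, and p-values were adjusted by Benjamini-Hochberg over all 16727 genes. CPM used TMM-scaled totals. The biological coefficient of variation was 18.1%. Single values per library were compared by exact permutation. Length and GC content came from 1 transcript a gene (GENCODE M21), near-identical copies from BLAST 2.17.0, start windows from RefSeq GRCm38.p6. Deviations are log2 CPM minus the gene's mean over libraries.

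Named genes were those called, the 3 of each subunit with the smallest p in each contrast, the 3 highest and 3 lowest of each subunit per kb, those with extreme spread, and a list of known roles. Rpl29 and genes listed beside a count were named after their values were seen. Some genes are not reported here by name. Alternatives were other normalizations (library totals, relative log expression, upper quartile), DESeq2 1.42.0, limma-voom (limma 3.58.1), other filters, 1 surrogate variable (sva 3.50.0), a GC and length offset, and leaving out libraries. On data simulated for the F2 comparison over 16727 genes, 47 of 100 genes changed 1.5-fold and 76 of 100 changed 2-fold were called. The changed genes were drawn at random from all tested genes. Genes varied independently in the simulation, with no trend in GC content or length. Smaller changes were not simulated, so these counts do not show how often changes as small as the F1 values would be called.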

Additional observations from a re-analysis of the deposited data

Results flagged for a closer look

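The lineage effect differed between generations (F2 effect minus F1 effect, edgeR, adjusted p below 0.05) for Rpl39 by 0.62, Rps24 by 0.53, Rpl7 by 0.50, Rps4x by 0.47 and Rpl5 by 0.40 on the log2 scale. In F2 stress, replicate 15 stood far from the other 4 mice in Rplp0 (125 CPM), Rplp2 (54.6 CPM), Rps25 (147 CPM) and Rps29 (144 CPM), each the highest of its group, and in the ratio of large-subunit to small-subunit counts (1.59, the lowest). That library also had the highest ribosomal protein share (1.18%) and, of the F2 stress libraries, the highest mitochondrial share (9.46%). In F2 no-stress, replicate 17 was far below the other 4 mice in Rpl5 (144 CPM). In F1 stress, replicate 5 was far above the others in Rplp0 (116 CPM) and Rps15 (202 CPM). These 8 distant samples came from 156 groups examined, and chance alone marks about 1 group in 20.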

How the results depend on the processing

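No paired analysis was possible because each mouse has its own replicate number and no label ties mice of different groups. In F1 0 members were called under every alternative run, and 73 to 76 of the 76 were below 0, with medians of -0.28 to -0.15. In the F2 comparison 1 member was called as reported, beside 1324 genes in all. The counts were 3 with DESeq2 (2019 in all), 2 with 1 surrogate variable (2173), 4 at an adjusted p below 0.1 (2502) and 4 without F2 stress 14 and F2 no-stress 20 (2213). They were 0 with no low-count filter (737), with only the F2 groups in the fit (0), or with the GC and length offset, fitted with or without the members (7). Leaving out 1 library gave 0 to 17 (241 to 2431 in all), with 0 for 11 of the 20 libraries. There were 17 without F2 stress replicate 15 (2431) and 5 without F2 no-stress replicate 20 (1655). For the difference between generations, 5 as reported (421 in all), the counts were 11 with DESeq2 (1211), 12 at an adjusted p below 0.1 (1359), 12 without F2 stress 14 and F2 no-stress 20 (1643), and 0 with library totals (294), no low-count filter (100) or either offset (0). Leaving out 1 library gave 0 to 12, with 0 for 13 of the 20. For F2 against F1 in the no-stress lineage, 0 as reported (335 in all), the counts were 1 with relative log expression factors (322), upper-quartile factors (318), the CPM filter (362) or 1 surrogate variable (681), 5 with DESeq2 (1013), 4 at an adjusted p below 0.1 (1057), and 0 to 3 when 1 library was left out (3 without F2 stress replicate 15 or F1 no-stress replicate 6). The small-subunit median of F2 against F1 in the stress lineage was -0.028 to 0.17 when 1 library was left out. With 1 surrogate variable 73 of the 76 were below 0 in F1. The genes whose sign turned in that fit included Rpl29 (0.046) and Rplp2 (0.029). When 1 library was left out, F1 values ran from -0.19 to 0.014 for Rpl29, from -0.14 to 0.0043 for Rpl35 and from -0.27 to 0.0061 for Rpl36. The causes were not tested. Rpl36 had the lowest mean count of the 76 genes (239.5) and the largest spread within groups (SD of log2 CPM 0.47). Rplp1, with a mean count of 1592, had a spread of 0.43.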
